A study of Mus musculus with 8 samples.

Results

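The interferon-stimulated genes and nucleic acid sensors of mouse fibroblasts were followed as 36 genes chosen by name, and all 36 were found among the 49315 genes listed for each library. The data are RNA sequencing of immortalized mouse embryonic fibroblasts (MEFs), with no treatment named in the labels, in 4 libraries labelled Opa1-/- and 4 labelled Opa1-/- + OPA1, which the labels describe as reconstituted with OPA1. By their labels both groups carry the Opa1-/- genotype, and no wild-type group was analysed here. The design asked what loss of OPA1, the dynamin-like GTPase that fuses mitochondrial inner membranes and shapes cristae, does to the transcriptome. The labels do not say whether each group is 1 clone, how OPA1 was expressed or whether the libraries came from separate cultures, so every p-value rests on library-to-library spread alone, and that spread may be technical.

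Fibroblasts detect foreign or misplaced nucleic acid with cytosolic receptors. RIG-I (Ddx58) and MDA5 (Ifih1) bind double-stranded RNA and signal through MAVS on the mitochondrial outer membrane, whereas cGAS (Mb21d1) binds DNA, mitochondrial DNA included, and signals through STING (Tmem173). Both routes activate IRF3 and the production of type I interferon. Interferon then acts through its receptor to assemble STAT and IRF9 into a factor that binds the interferon-stimulated response element (ISRE) in front of genes such as Isg15, Ifit1, Mx1 and Rsad2. Many of these genes also have a resting level that does not need added interferon.

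The files give TPM, transcripts-per-million values, a level per transcript length, and the steps between low TPM values imply an estimated 52643174 to 57580823 assigned reads per library. Between 14014 and 14551 genes per library reached 1 TPM or more. A set of 4 small and ribosomal RNA genes took 5.29% to 15.5% of the TPM, least in the libraries numbered 3 of each group, so libraries were rescaled before testing. Opa1 itself had 14.8, 14.2, 14.6 and 12.1 TPM in Opa1-/- libraries, against 15.4, 14.1, 15.7 and 14.2 TPM in Opa1-/- + OPA1 libraries (log2 difference -0.09, SE 0.06, adjusted p = 0.303), so total Opa1 overlapped between the groups and is no check on the labels; no value for the deleted part alone was analysed here. Fibroblast markers were abundant, and their levels are given in TPM as deposited. Vim, an intermediate filament gene of mesenchymal cells, averaged 1410 ± 94.1 and 1370 ± 80.7 TPM (Opa1-/- and Opa1-/- + OPA1, SD, n = 4 each). The 14 fibroblast markers summed to 2770 to 3380 TPM in Opa1-/- libraries and 3200 to 3640 TPM in Opa1-/- + OPA1 libraries. Of the 11 fibroblast markers tested, 1 was higher in Opa1-/- libraries and 6 were lower. Over all genes tested, as described below, 16.3% were higher and 16.7% lower. Of 14 macrophage or dendritic markers, Adgre1, Flt3, Itgam, Itgax, Ptprc and Siglech stayed under 0.05 TPM in every library. That list summed to 44.3 to 52.0 TPM in Opa1-/- libraries and 57.8 to 63.3 TPM in Opa1-/- + OPA1 libraries. Nearly all of it was Cd14, at 43.3 ± 4.98 and 54.5 ± 2.76 TPM. Of the 2 macrophage or dendritic markers tested, 1 was lower in Opa1-/- libraries. Lymphocyte markers summed to 0.185 to 0.390 TPM in Opa1-/- libraries and 0.157 to 0.361 TPM in Opa1-/- + OPA1 libraries. Cd79a was the most abundant at 0.199 ± 0.121 and 0.165 ± 0.0765 TPM. Endothelial markers summed to 6.84 to 7.76 TPM in Opa1-/- libraries and 4.77 to 5.36 TPM in Opa1-/- + OPA1 libraries. Most of it was Egfl7 (6.80 ± 0.458 and 4.56 ± 0.260 TPM), with Cdh5 and Emcn under 0.05 TPM throughout. The 1 endothelial marker tested was higher in Opa1-/- libraries. Epithelial markers summed to 172 to 206 TPM in Opa1-/- libraries and 141 to 201 TPM in Opa1-/- + OPA1 libraries. Most of it was Krt18 (170 ± 15.8 and 165 ± 26 TPM). Of the 3 epithelial markers tested, 2 were higher in Opa1-/- libraries, where 16.3% of all genes tested were. The part of these marker differences in the results below was not tested.

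The members differed widely in level. Of the 36 members, 18 were at 1 TPM or more in all 8 libraries, 14 in none, and 4 (Tmem173, Isg15, Dtx3l and Ifit3) in some. Per library, 22, 21, 21 and 19 members reached 1 TPM in Opa1-/- libraries, against 19 in each Opa1-/- + OPA1 library, and by group mean 21 did in Opa1-/- and 19 in Opa1-/- + OPA1. The members at 1 TPM or more throughout came from most roles. They were sensors, adaptors and transcription factors, and also Ifit2, Gbp2, Bst2, Ifitm1, Ifitm2, Ifitm3, Parp9 and Rnf213. Mx1, Mx2, Rsad2, Oasl1, Oasl2, Ifit1, Gbp3, Gbp7, Zbp1, Irf7, Ifih1, Ifit3b, Usp18 and Parp14 stayed under 1 TPM in every library, the highest value among them being 0.835 TPM. These low members include the sensors Ifih1 and Zbp1 and the factor Irf7. Summed over members, TPM was 648 to 732 in Opa1-/- libraries and 657 to 717 in Opa1-/- + OPA1 libraries. Ifitm2 made up most of that sum; without it the range was 218 to 242.5 TPM in Opa1-/- libraries and 228 to 257 TPM in Opa1-/- + OPA1 libraries.

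**Figure D1:**
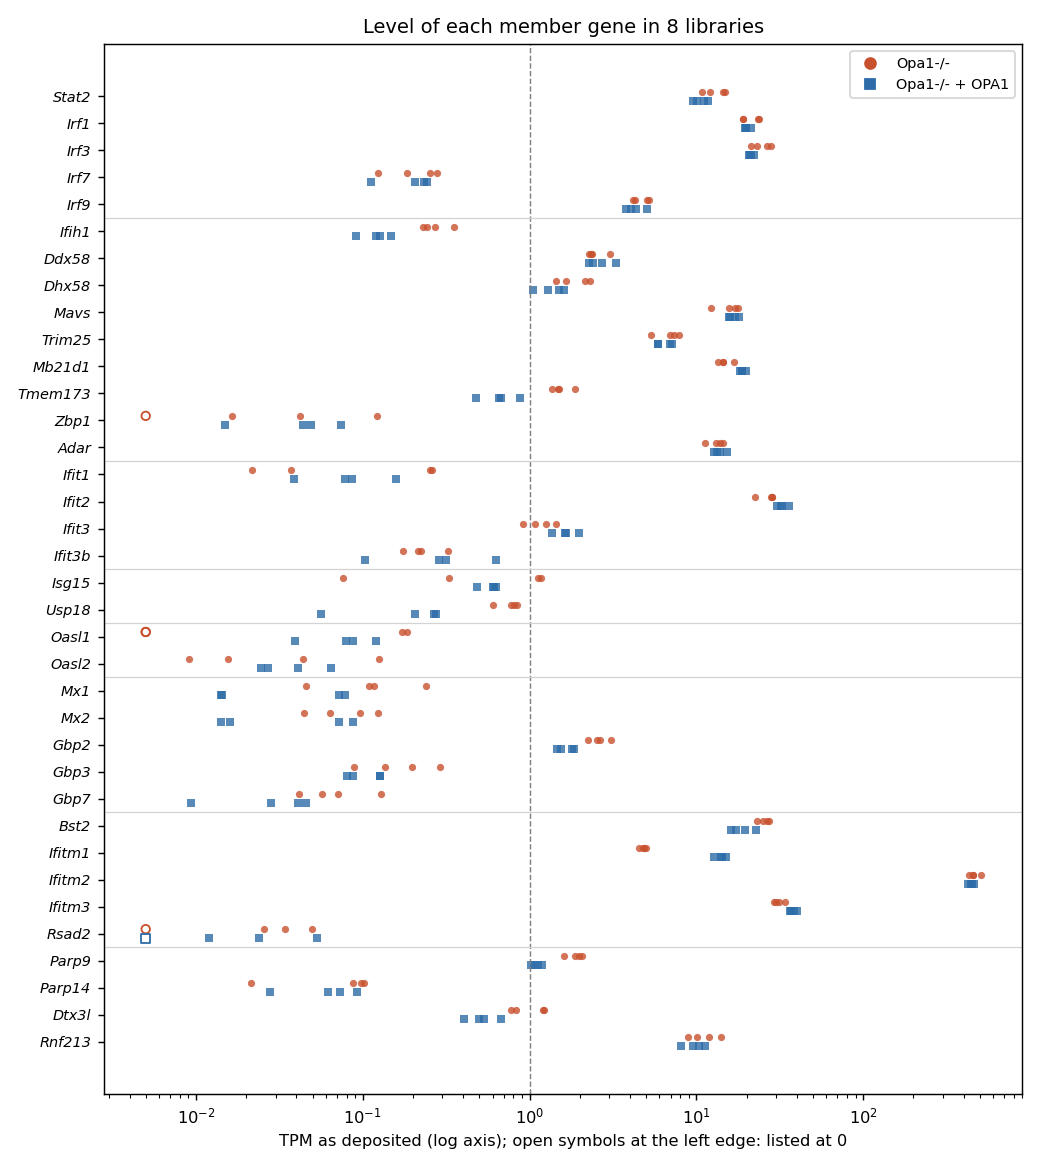
Deposited TPM of each of the 36 members in each of the 8 libraries, on a log axis, by role. Points are single libraries of Opa1-/- and Opa1-/- + OPA1 cells. Ifitm2 lies at 425 TPM or more in every library, and 14 members lie below 1 TPM in every library.

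Differences between the groups ran in both directions and were small except for a few genes. A gene had to reach 1 TPM in at least 4 of the 8, and those that did were tested with limma-trend on log2 of scaled TPM plus 1, with Benjamini-Hochberg adjustment over all 14272 genes tested, and a gene passed at an adjusted p below 0.05. All differences are Opa1-/- minus Opa1-/- + OPA1 on that scale, which understates the change of low genes. Of the 20 members tested, 9 passed (45.0%), where 33.0% of all genes tested passed. Stat2, Tmem173, Gbp2, Bst2 and Parp9 were higher in Opa1-/- libraries (16.3% of all genes tested were higher), and Mb21d1, Ifit2, Ifitm1 and Ifitm3 were lower (16.7% of all genes tested were lower). The median log2 difference was 0.07 over the tested members and -0.00 over all genes tested, and the median absolute difference was 0.27 over the members and 0.16 over all genes. Tmem173 entered the test only through its Opa1-/- libraries, so it had to differ, and these counts describe the members that passed the filter, not all 36. In bulk RNA, fewer cells of a kind and less RNA per cell cannot be told apart.

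**Figure D2:**
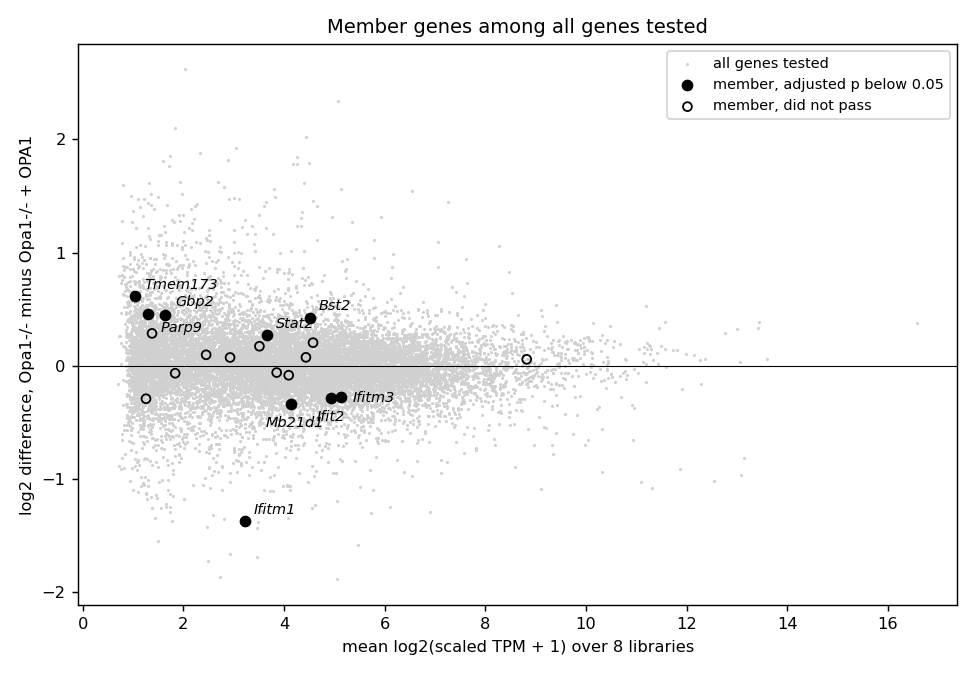
Log2 difference, Opa1-/- minus Opa1-/- + OPA1, against the mean log2 level over the 8 libraries for all 14272 genes tested (grey) and the 20 tested members (circles). Filled circles are the 9 members with an adjusted p below 0.05. Ifitm1, at -1.37, lies apart from the other members, which fall between -0.34 and 0.62.

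The starts of the members were read for the ISRE, the element through which type I interferon acts. RefSeq promoter windows on GRCm38.p6, from 250 bases before to 50 bases after the start, were given for 28 members and searched on both strands for the ISRE core GAAANNGAAA (TTTCNNTTTC on the other strand) and for the gamma-activated site, GAS, TTCNNNGAA, which is its own reverse complement. The ISRE core was found in 14 of the 28 members (50%), against 3.99% of the 27025 genes with a window, and the GAS in 6 of 28 (21.4%), against 9.55%. The members with an ISRE core were Stat2, Ifih1, Ddx58, Ifit1, Ifit3, Ifit3b, Isg15, Gbp2, Gbp3, Gbp7, Bst2, Ifitm2, Ifitm3 and Rsad2, and those with a GAS were Irf1, Adar, Ifit2, Gbp7, Bst2 and Ifitm3. With 1 mismatch allowed the core was in 22 of 28 members, against 38.9% of all genes. No window was given for Dhx58, Tmem173, Zbp1, Usp18, Mx1, Mx2, Parp9 and Parp14. Gene sets named for a response are known to be rich in its element, and a match is letters in a window, not a bound site.

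The windows of 6 members are printed because they show members at low levels (Isg15 and Ifit1), members that were higher in Opa1-/- libraries (Bst2 and Gbp2) and members that were lower (Ifitm1 and Ifitm3). Each runs from 250 bases before to 30 bases after the start, 280 bases, in the direction of the gene, with bases of ISRE core matches in capitals. They lie at chr4:156200789-156201068, minus strand (Isg15); chr19:34640639-34640918, plus strand (Ifit1); chr8:71537443-71537722, minus strand (Bst2); chr3:142620413-142620692, plus strand (Gbp2); chr7:140967826-140968105, plus strand (Ifitm1); and chr7:141010715-141010994, minus strand (Ifitm3), on GRCm38.p6.
Isg15: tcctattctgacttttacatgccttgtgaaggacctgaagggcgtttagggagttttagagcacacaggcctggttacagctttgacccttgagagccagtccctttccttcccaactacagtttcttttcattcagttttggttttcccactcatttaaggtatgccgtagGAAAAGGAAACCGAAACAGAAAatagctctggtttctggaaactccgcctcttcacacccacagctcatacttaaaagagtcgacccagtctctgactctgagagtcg
Ifit1: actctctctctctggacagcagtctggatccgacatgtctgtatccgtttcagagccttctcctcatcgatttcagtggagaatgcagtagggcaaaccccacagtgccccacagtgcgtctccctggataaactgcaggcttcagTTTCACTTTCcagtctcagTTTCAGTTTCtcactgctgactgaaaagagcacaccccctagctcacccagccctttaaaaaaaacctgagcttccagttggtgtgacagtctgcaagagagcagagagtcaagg
Bst2: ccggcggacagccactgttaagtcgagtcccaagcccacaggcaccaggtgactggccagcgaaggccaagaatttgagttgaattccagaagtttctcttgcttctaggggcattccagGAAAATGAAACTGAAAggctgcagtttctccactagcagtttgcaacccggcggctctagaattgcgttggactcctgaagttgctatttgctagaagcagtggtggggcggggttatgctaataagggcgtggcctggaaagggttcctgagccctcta
Gbp2: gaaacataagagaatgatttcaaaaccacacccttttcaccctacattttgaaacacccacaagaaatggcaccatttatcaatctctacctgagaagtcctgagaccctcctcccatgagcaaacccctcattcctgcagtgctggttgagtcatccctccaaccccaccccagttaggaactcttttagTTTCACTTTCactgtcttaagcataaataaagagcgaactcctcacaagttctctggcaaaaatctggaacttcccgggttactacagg
Ifitm1: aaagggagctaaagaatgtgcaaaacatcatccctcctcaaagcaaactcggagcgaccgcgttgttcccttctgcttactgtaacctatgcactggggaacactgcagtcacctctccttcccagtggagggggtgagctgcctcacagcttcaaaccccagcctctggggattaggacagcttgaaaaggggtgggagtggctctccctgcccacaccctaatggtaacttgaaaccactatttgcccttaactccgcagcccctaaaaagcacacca
Ifitm3: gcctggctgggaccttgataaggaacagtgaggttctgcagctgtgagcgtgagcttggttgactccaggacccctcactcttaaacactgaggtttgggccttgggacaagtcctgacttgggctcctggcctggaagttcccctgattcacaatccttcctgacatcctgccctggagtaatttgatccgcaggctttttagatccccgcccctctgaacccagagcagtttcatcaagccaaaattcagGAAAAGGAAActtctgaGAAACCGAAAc
Isg15 holds 3 overlapping matches between bases -78 and -57 from the start, and Bst2 holds 2 overlapping ones between bases -130 and -115. Ifit1 has separate matches that begin at bases -104 and -85, and Gbp2 has 1 that begins at base -59. Both matches of Ifitm3 lie just after the start, beginning at base 3 and base 20. Ifitm1, the member with the largest difference in the TPM test, has no match on either strand, and its RefSeq start lies inside the span of the GENCODE gene. Of the other members that passed the test and have a window, Stat2 has a match that begins at base -222, while Mb21d1 and Ifit2 have none.

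**Figure D3:**
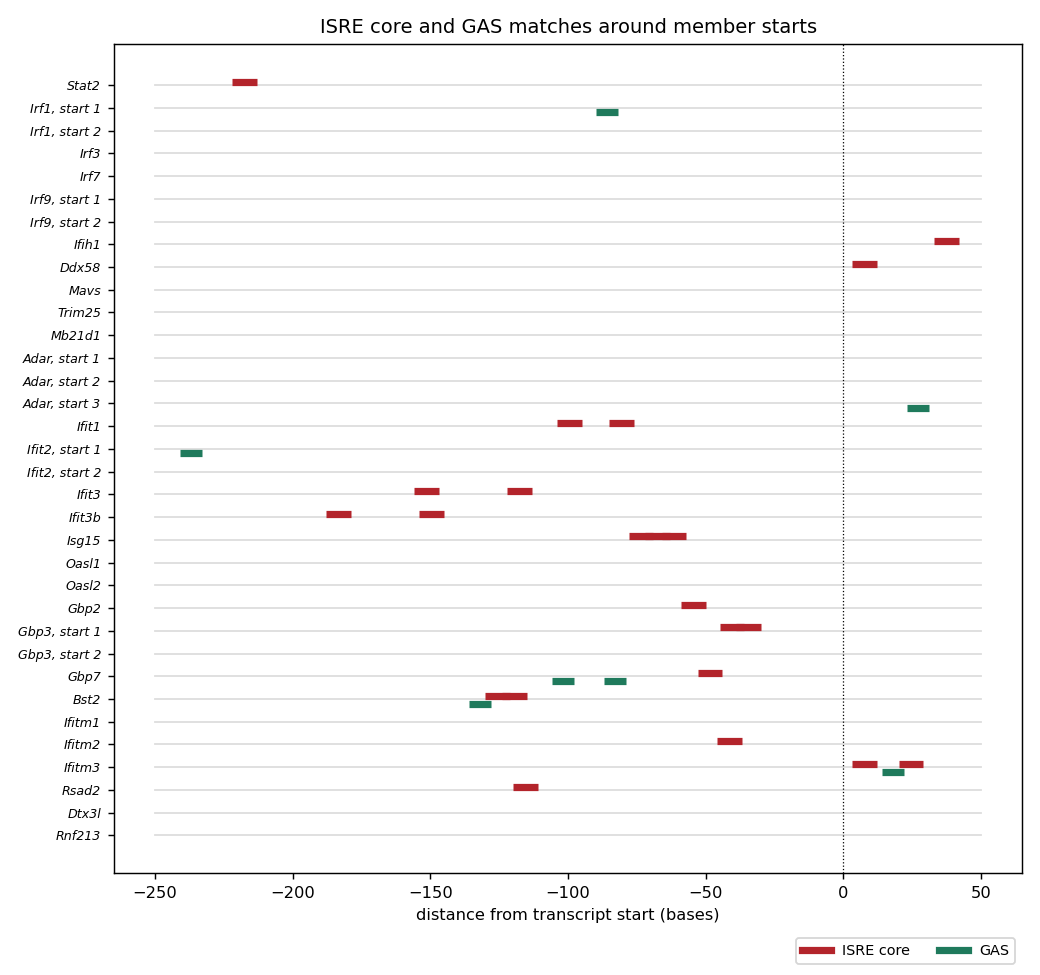
Positions of ISRE core (red) and GAS (green) matches, in bases from the transcript start, in the promoter windows of the 28 members that have one; a member with several starts has a line for each. Isg15 and Gbp3 have overlapping ISRE cores between bases -78 and -30, and those of Ifih1, Ddx58 and Ifitm3 lie after it.

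Among the transcription factors, 1 of 4 tested members passed, where 33.0% of all genes did. Stat2, the partner of IRF9 in the factor that binds the ISRE, had 12.0, 10.8, 14.9 and 14.4 TPM in Opa1-/- libraries, against 9.55, 10.0, 11.7 and 11.1 TPM in Opa1-/- + OPA1 libraries. In TPM as deposited the groups overlap, since Opa1-/- library 2 lies below Opa1-/- + OPA1 libraries 3 and 4. They also overlap after rescaling. The log2 difference was 0.27 (SE 0.09, adjusted p = 0.0448). It passed in 9 of 19 alternative settings, with adjusted p from 0.0199 to 0.157. It did not pass on TPM as deposited (0.0965), without a filter (0.0995) or with chromosome medians removed (0.107). Nor did it pass with Opa1-/- library 3 or 4 left out (adjusted p = 0.101 and 0.0743) or with any Opa1-/- + OPA1 library left out (0.0585 to 0.116). The highest adjusted p, 0.157, came without both libraries numbered 3.

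Irf3, the factor that MAVS and STING activate, had 23.1, 21.2, 26.5 and 28.2 TPM in Opa1-/- libraries, against 20.98, 20.6, 22.2 and 21.3 TPM in Opa1-/- + OPA1 libraries. Opa1-/- libraries 3 and 4 are the high ones, and the groups overlap in TPM as deposited but not after rescaling. The difference of 0.20 (SE 0.08, adjusted p = 0.0842) did not pass. Irf1, which is induced through GAS elements, had 18.9, 19.0, 23.6 and 23.7 TPM in Opa1-/- libraries, against 19.9, 19.8, 21.1 and 19.7 TPM in Opa1-/- + OPA1 libraries (0.07, SE 0.08, adjusted p = 0.498). In TPM as deposited, its Opa1-/- libraries split into a lower pair numbered 1 and 2 and a higher pair numbered 3 and 4. These lie on either side of all 4 Opa1-/- + OPA1 libraries. After rescaling, Opa1-/- library 2 no longer lies below Opa1-/- + OPA1 library 3. Irf9, the DNA-binding part of the ISRE factor, was at 4.17 to 5.17 TPM in Opa1-/- libraries and 3.77 to 5.09 TPM in Opa1-/- + OPA1 libraries (0.10, SE 0.09, adjusted p = 0.433). Irf7, which amplifies the response once interferon is made, rested on 19, 18, 8 and 14 reads in Opa1-/- libraries and 17, 15, 16 and 8 reads in Opa1-/- + OPA1 libraries, too few for the TPM test.

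The DNA-sensing route held opposite differences in its sensor and its adaptor. Mb21d1, which encodes cGAS, had 14.4, 13.5, 16.8 and 14.4 TPM in Opa1-/- libraries, against 18.7, 18.8, 19.9 and 18.4 TPM in Opa1-/- + OPA1 libraries. Every Opa1-/- library lies below every Opa1-/- + OPA1 library. The log2 difference was -0.34 (SE 0.05, adjusted p = 0.000882), and it passed in all 19 alternatives run. Tmem173, which encodes STING, had 1.48, 1.88, 1.36 and 1.51 TPM in Opa1-/- libraries, against 0.872, 0.655, 0.673 and 0.479 TPM in Opa1-/- + OPA1 libraries. The groups do not overlap, and the mean scaled TPM of Opa1-/- libraries was 2.34 times that of Opa1-/- + OPA1 libraries. Only its Opa1-/- libraries reached 1 TPM, so in TPM as deposited its groups could not overlap once it entered the test. The TPM test therefore had a fixed direction for this gene. The difference was 0.62 (SE 0.12, adjusted p = 0.00492). These values rest on 72, 96, 64 and 83 reads in Opa1-/- libraries and 46, 34, 32 and 25 reads in Opa1-/- + OPA1 libraries, and a limma-voom fit on the recovered reads, which adds no TPM pseudocount, gave 1.23 (SE 0.22, adjusted p = 0.000877).

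RNA sensing showed 1 low member that differed on the read scale and otherwise no member that passed. Ifih1, which encodes MDA5, a sensor of long double-stranded RNA, had 52, 35, 38 and 40 reads in Opa1-/- libraries, against 19, 20, 13 and 23 reads in Opa1-/- + OPA1 libraries. Every Opa1-/- library lies above every Opa1-/- + OPA1 library, although all are at 0.355 TPM or less, under the level that was tested. In the limma-voom fit, where 33.2% of 16848 genes passed, the difference was 1.15 (SE 0.25, adjusted p = 0.00354). Ddx58, which encodes RIG-I, a sensor of short RNA with a triphosphate end, had 2.27, 2.36, 3.04 and 2.34 TPM in Opa1-/- libraries, against 2.41, 2.29, 3.30 and 2.72 TPM in Opa1-/- + OPA1 libraries (-0.07, SE 0.09, adjusted p = 0.630). In each group the library numbered 3 is the highest. Dhx58, whose product LGP2 modulates both sensors, had 1.45, 1.65, 2.30 and 2.15 TPM in Opa1-/- libraries, against 1.60, 1.05, 1.30 and 1.49 TPM in Opa1-/- + OPA1 libraries (0.29, SE 0.13, adjusted p = 0.117). The groups overlap through Opa1-/- library 1.

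Mavs, the adaptor of RNA sensors on mitochondria, had 17.0, 15.8, 17.7 and 12.3 TPM in Opa1-/- libraries, against 15.6, 15.9, 17.9 and 17.0 TPM in Opa1-/- + OPA1 libraries (-0.08, SE 0.08, adjusted p = 0.485). Opa1-/- library 4 is the low one, and the other libraries overlap. The 95% interval of the difference ran from -0.27 to 0.11. Trim25, a ubiquitin ligase that acts on RIG-I, spanned 5.33 to 7.87 TPM in Opa1-/- libraries and 5.86 to 7.11 TPM in Opa1-/- + OPA1 libraries (0.07, SE 0.09, adjusted p = 0.588). Adar, which edits double-stranded RNA and so hides it from MDA5, spanned 11.3 to 14.4 TPM in Opa1-/- libraries and 12.8 to 15.3 TPM in Opa1-/- + OPA1 libraries (-0.06, SE 0.06, adjusted p = 0.472). A share of 16.8% of its exon bases also belongs to Chrnb2 on the opposite strand. The strand setting is not given, so the assignment of reads there is uncertain. Zbp1, a sensor of Z-form nucleic acid, had 0, 8, 1 and 3 reads in Opa1-/- libraries and 3, 5, 3 and 1 reads in Opa1-/- + OPA1 libraries. A count of 0 in Opa1-/- library 1 allows up to 0.0476 TPM.

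**Figure D4:**
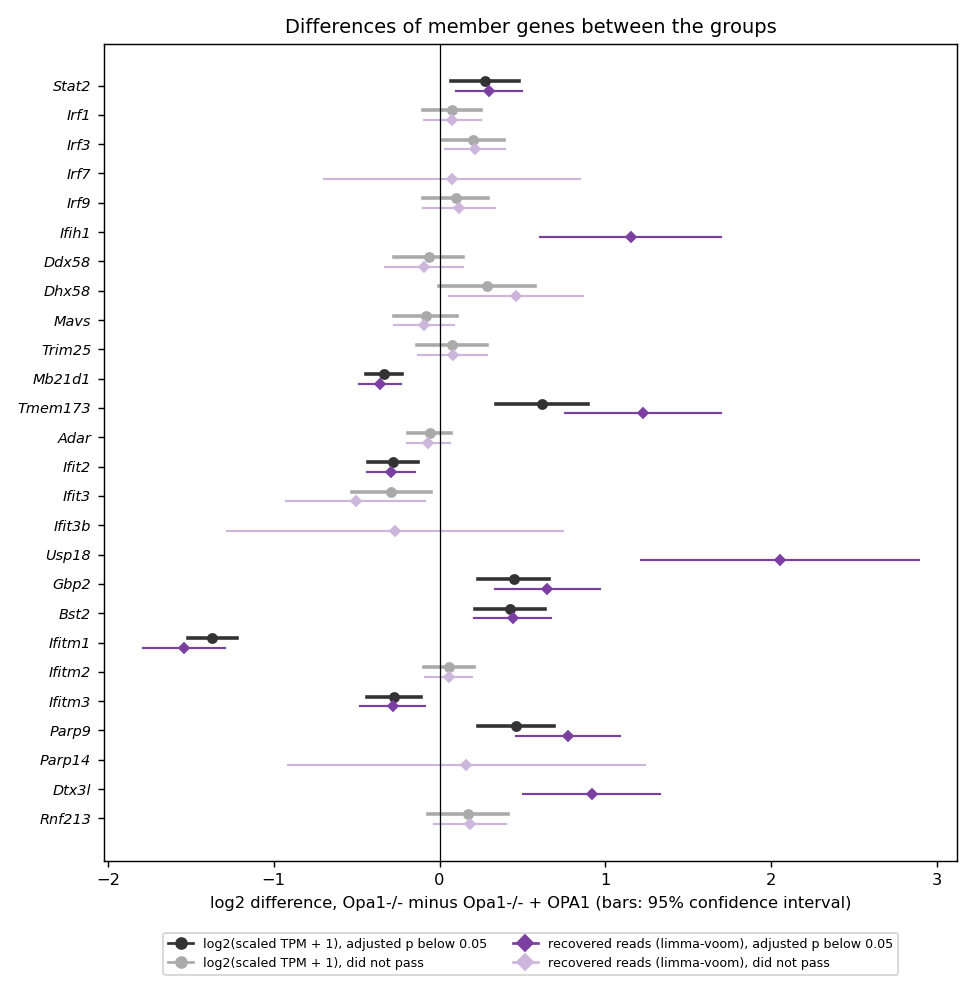
Log2 difference, Opa1-/- minus Opa1-/- + OPA1, of each member that was tested, with 95% confidence intervals, from scaled TPM (circles) and from recovered reads (diamonds). Dark symbols passed at an adjusted p below 0.05. Ifih1, Usp18 and Dtx3l have a read-based value alone and lie at 1.15, 2.05 and 0.92, and Ifitm1 lies lowest on either scale.

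The genes of the IFIT proteins, some of which bind viral RNA, were unequal in level. Ifit2 had 28.6, 27.9, 28.3 and 22.4 TPM in Opa1-/- libraries, against 32.5, 32.1, 36.1 and 30.3 TPM in Opa1-/- + OPA1 libraries. The groups do not overlap, with Opa1-/- library 4 the lowest. The log2 difference was -0.28 (SE 0.07, adjusted p = 0.0116), and it passed in 18 of 19 alternatives. The exception left out both libraries numbered 3 (-0.27, adjusted p = 0.0671). Ifit3 had 1.44, 1.07, 1.26 and 0.909 TPM in Opa1-/- libraries, against 1.62, 1.37, 1.97 and 1.66 TPM in Opa1-/- + OPA1 libraries. The groups overlap at Opa1-/- library 1 and Opa1-/- + OPA1 library 2, and the difference of -0.29 (SE 0.10, adjusted p = 0.0612) did not pass. Of its 50-base words, 51.2% occur in other genes, chiefly its neighbour Ifit3b, so the split of reads between them is uncertain. Ifit3b had 8, 8, 6 and 13 reads in Opa1-/- libraries and 4, 11, 22 and 12 reads in Opa1-/- + OPA1 libraries.

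Ifit1, the founding member of the family and a common readout of interferon, lay far below Ifit2. It had 12, 13, 1 and 2 reads in Opa1-/- libraries, against 2, 4, 4 and 8 reads in Opa1-/- + OPA1 libraries, or 0.0218 to 0.262 TPM and 0.0388 to 0.158 TPM. Opa1-/- libraries 1 and 2 are the highest of the 8 and Opa1-/- libraries 3 and 4 among the lowest, with the Opa1-/- + OPA1 libraries reaching into the gap. Isg15, the ubiquitin-like modifier, had the same order: 16, 16, 1 and 5 reads in Opa1-/- libraries, against 9, 7, 8 and 9 reads in Opa1-/- + OPA1 libraries (1.18, 1.13, 0.0765 and 0.328 TPM against 0.613, 0.482, 0.607 and 0.626 TPM). All 4 Opa1-/- + OPA1 libraries lie between the pairs of Opa1-/- libraries. Oasl1, an OAS-like protein without the synthetase activity, had 8, 9, 0 and 0 reads in Opa1-/- libraries, against 2, 4, 4 and 6 reads in Opa1-/- + OPA1 libraries. Counts of 0 allow up to 0.0669 and 0.0572 TPM in Opa1-/- libraries 3 and 4.

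Among genes outside the 36, and chosen after their values were seen, Oas1a had 7, 7, 0 and 0 reads in Opa1-/- libraries and 2, 2, 2 and 1 reads in Opa1-/- + OPA1 libraries. Ifi27, an interferon-induced gene, had 3.19, 3.13, 1.26 and 1.22 TPM in Opa1-/- libraries, against 2.04, 1.70, 2.85 and 1.68 TPM in Opa1-/- + OPA1 libraries (0.02, SE 0.24, adjusted p = 0.968). In these genes the Opa1-/- libraries numbered 1 and 2 differ from those numbered 3 and 4, and the group means do not describe either pair. Not all low genes followed that order. Oasl2 had 5, 15, 1 and 2 reads in Opa1-/- libraries and 8, 5, 3 and 3 reads in Opa1-/- + OPA1 libraries. Mx1 had 3, 8, 15 and 8 reads in Opa1-/- libraries, the most in library 3. Outside the 36, and also seen first, Xaf1 had 22, 24, 49 and 44 reads in Opa1-/- libraries, higher in those numbered 3 and 4. It had 22, 12, 31 and 12 reads in Opa1-/- + OPA1 libraries.

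**Figure D5:**
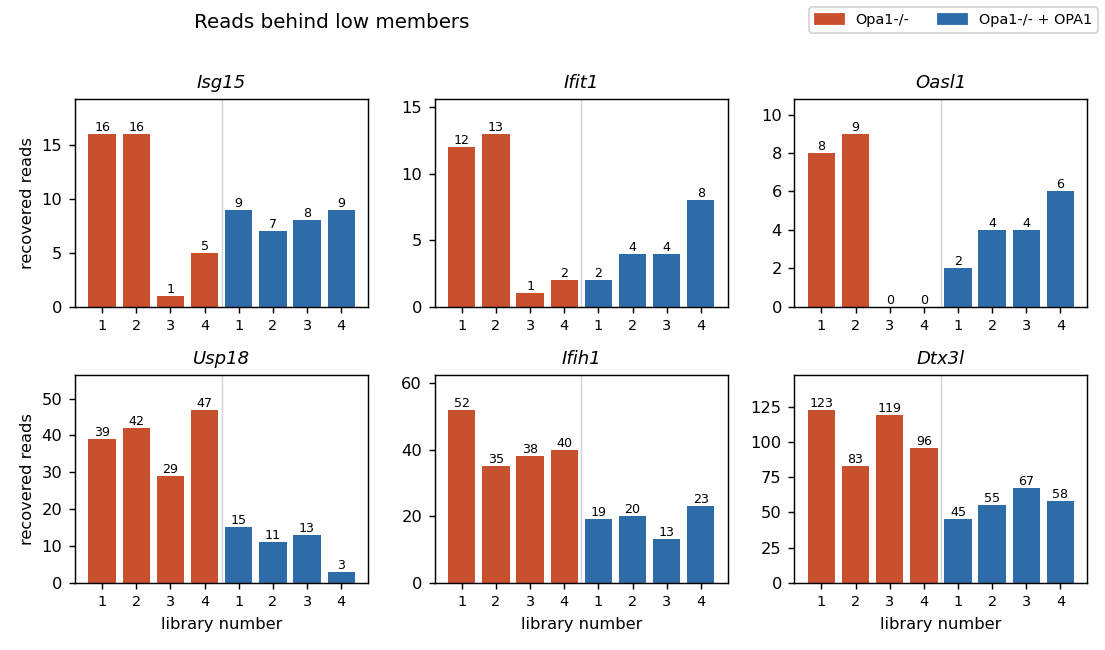
Recovered reads per library for 6 members that are low in these cells; bars start at 0, with the Opa1-/- libraries left of the Opa1-/- + OPA1 libraries. Isg15, Ifit1 and Oasl1 are highest in Opa1-/- libraries 1 and 2 and lowest in Opa1-/- libraries 3 and 4, apart from Ifit1 in Opa1-/- + OPA1 library 1, which equals Opa1-/- library 4. Usp18, Ifih1 and Dtx3l are higher in all 4 Opa1-/- libraries than in any Opa1-/- + OPA1 library.

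Usp18 did not follow its partner Isg15. The protein removes ISG15 from its targets and blocks signalling at the type I interferon receptor. It had 39, 42, 29 and 47 reads in Opa1-/- libraries, against 15, 11, 13 and 3 reads in Opa1-/- + OPA1 libraries, or 0.601 to 0.835 TPM and 0.0565 to 0.277 TPM. All 4 Opa1-/- libraries are above all 4 Opa1-/- + OPA1 libraries, and the ratio of mean scaled TPM was 3.81. The limma-voom fit gave 2.05 (SE 0.39, adjusted p = 0.00132).

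Of the dynamin-like GTPases and guanylate-binding proteins, which attack viral particles and the membranes around microbes, only Gbp2 was abundant enough to test. It had 2.24, 2.55, 3.08 and 2.66 TPM in Opa1-/- libraries, against 1.45, 1.55, 1.80 and 1.86 TPM in Opa1-/- + OPA1 libraries. The groups do not overlap, and the difference was 0.45 (SE 0.09, adjusted p = 0.00651). Its neighbours on chromosome 3 were lower in level: Gbp3 had 17, 12, 5 and 9 reads in Opa1-/- libraries and 8, 8, 5 and 5 reads in Opa1-/- + OPA1 libraries. Gbp7 had 13, 6, 4 and 8 reads in Opa1-/- libraries and 5, 1, 4 and 3 reads in Opa1-/- + OPA1 libraries, with 11.4% of its exon bases shared with Gm43802. Both overlap between the groups. Mx1, an antiviral GTPase, had 3, 8, 15 and 8 reads in Opa1-/- libraries and 1, 1, 5 and 5 reads in Opa1-/- + OPA1 libraries. Mx2, annotated as a polymorphic pseudogene, had 8, 3, 4 and 7 reads in Opa1-/- libraries and 1, 5, 1 and 6 reads in Opa1-/- + OPA1 libraries. Mx1 and Mx2 also overlap between the groups, and had too few reads for the TPM test or limma-voom. In limma-trend without a filter on low TPM, neither passed (adjusted p = 0.219 and 0.513).

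The membrane restriction factors held the largest difference of the members in the TPM test, though on the read scale that of Usp18 was larger (2.05, against -1.54 for Ifitm1). Ifitm1, a small transmembrane protein that hinders viral fusion (chr7:140967221-140969825, plus strand, GRCm38, protein-coding), had 4.83, 4.98, 4.55 and 4.80 TPM in Opa1-/- libraries, against 14.3, 14.0, 15.05 and 12.7 TPM in Opa1-/- + OPA1 libraries. The groups lie far apart, with little spread within either, and the mean scaled TPM of Opa1-/- libraries was 0.344 times that of Opa1-/- + OPA1 libraries. The log2 difference was -1.37 (SE 0.07, adjusted p = 5.35e-06), and it lay between -1.54 and -1.32 in the 19 alternatives run. Ifitm3 (chr7:141009586-141010770, minus strand), which acts in late endosomes, had 31.1, 29.4, 30.04 and 33.9 TPM in Opa1-/- libraries, against 36.9, 40.0, 38.4 and 36.4 TPM in Opa1-/- + OPA1 libraries. These groups do not overlap either, but the difference was smaller, at -0.27 (SE 0.07, adjusted p = 0.0181).

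Ifitm2 (chr7:140954837-140955987, minus strand), from the same cluster, was the most abundant member. It had 454, 430.1, 454 and 506 TPM in Opa1-/- libraries, against 449, 441, 460.3 and 425 TPM in Opa1-/- + OPA1 libraries. The groups overlap, and the difference of 0.06 (SE 0.07, 95% interval -0.09 to 0.21, adjusted p = 0.546) did not pass. A share of 40.9% of its exon bases is also annotated to Gm45717 on the same strand, so its level is uncertain. By level the cluster ran Ifitm2, Ifitm3, Ifitm1 in each library, with no overlap between neighbours in that order.

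Bst2, or tetherin, which holds budding virions at the cell surface (chr8:71534255-71537456, minus strand), moved the other way. It had 27.3, 25.0, 23.1 and 26.4 TPM in Opa1-/- libraries, against 17.3, 16.1, 22.7 and 19.4 TPM in Opa1-/- + OPA1 libraries. The groups do not overlap, though Opa1-/- + OPA1 library 3 comes close to Opa1-/- library 3. The difference was 0.43 (SE 0.09, adjusted p = 0.00761), and it passed in all 19 alternatives run. Rsad2, or viperin, an enzyme that makes a chain-terminating nucleotide, had 2, 4, 0 and 3 reads in Opa1-/- libraries and 1, 2, 4 and 0 reads in Opa1-/- + OPA1 libraries, where a count of 0 allows up to 0.0403 and 0.0366 TPM.

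Parp9 and Dtx3l encode an ADP-ribosyltransferase and a ubiquitin ligase that work as a complex, and their genes lie head to head on chromosome 16. Parp9 had 1.98, 1.87, 1.62 and 2.08 TPM in Opa1-/- libraries, against 1.19, 1.07, 1.12 and 1.014 TPM in Opa1-/- + OPA1 libraries. The groups do not overlap, and the difference was 0.46 (SE 0.10, adjusted p = 0.00799). Dtx3l had 1.21, 0.775, 1.21 and 0.832 TPM in Opa1-/- libraries, against 0.405, 0.4997, 0.671 and 0.533 TPM in Opa1-/- + OPA1 libraries. Too few of its libraries reached 1 TPM for the TPM test, the groups do not overlap, and the limma-voom fit gave 0.92 (SE 0.19, adjusted p = 0.00260). The genes overlap on opposite strands over 9.40% of Parp9 and 8% of Dtx3l exon bases. The strand setting is not given, so the assignment of that part of their reads is uncertain.

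Parp14, another ADP-ribosyltransferase gene of that locus, had 17, 17, 14 and 4 reads in Opa1-/- libraries and 5, 13, 15 and 11 reads in Opa1-/- + OPA1 libraries, and the limma-voom fit gave 0.16 (SE 0.50, adjusted p = 0.840). Rnf213, a large ubiquitin ligase that coats lipid droplets and bacteria, had 11.9, 10.1, 14.0 and 8.94 TPM in Opa1-/- libraries, against 9.59, 8.05, 11.3 and 10.3 TPM in Opa1-/- + OPA1 libraries (0.17, SE 0.11, adjusted p = 0.254). Both genes overlap between the groups.

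Low members are under-represented in the TPM test, so the read scale was set beside it. With at least 10 reads in at least 4 libraries, limma-voom tested 26 members and 12 passed, 8 higher in Opa1-/- libraries and 4 lower, where 33.2% of the 16848 genes tested passed, 17.1% higher and 16.1% lower. The 3 added were Ifih1, Usp18 and Dtx3l, and the 9 of the TPM test passed again. The other members tested on reads alone were Irf7 (0.07, SE 0.36, adjusted p = 0.901), Ifit3b (-0.27, SE 0.47, adjusted p = 0.708) and Parp14, and none passed. Without any filter on low TPM, 11 of all 36 members passed, where 14.1% of 30602 genes did, and Stat2 was not among them. With the replicate number as a block 9 of the 20 passed again, where 33.3% of genes did. The remaining 10 members (Zbp1, Ifit1, Isg15, Oasl1, Oasl2, Mx1, Mx2, Gbp3, Gbp7 and Rsad2) had too few reads for the filtered TPM test or limma-voom. Summed over the 16 members outside the TPM test, reads were 342, 297, 246 and 261 in Opa1-/- libraries, against 145, 167, 187 and 161 in Opa1-/- + OPA1 libraries, a sum in which Dtx3l, Ifih1 and Usp18 weigh most. Of the 20 members with a TPM test, 9 did not overlap between the groups (45.0%), against 36.3% of all genes tested. Tmem173 is among these 9, and it entered the test only through its Opa1-/- libraries.

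Interferon transcripts themselves were close to absent. Of 21 interferon genes in the files, 13 had 0 reads in every library, and the reads of all 21 summed to 9, 6, 5 and 6 in Opa1-/- libraries and 3, 7, 12 and 12 in Opa1-/- + OPA1 libraries. Ifnb1, named with Ifnar1 after their values were seen, had 1, 0, 0 and 0 reads in Opa1-/- libraries and 1, 2, 3 and 0 reads in Opa1-/- + OPA1 libraries. The highest level of any of them was 0.633 TPM. The interferon receptor chain Ifnar1 was present at 21.4, 19.97, 23.0 and 19.5 TPM in Opa1-/- libraries and 21.5, 20.96, 23.3 and 21.7 TPM in Opa1-/- + OPA1 libraries, and it did not pass (adjusted p = 0.304).

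Other genes of the pathway were counted from lists drawn up by function. Of 160 such genes, 159 were in the files and 84 were tested; 21 were higher in Opa1-/- libraries and 12 lower (39.3%, against 33.0% of all genes), with a median log2 difference of 0.05. Among interferons and receptors, 1 of 6 tested passed (16.7%, against 33.0% of all genes). That was Il10rb, a chain shared by the interleukin 10 and type III interferon receptors, with 7.75, 7.73, 9.16 and 9.05 TPM in Opa1-/- libraries, against 6.58, 6.71, 6.93 and 6.25 TPM in Opa1-/- + OPA1 libraries (0.31, SE 0.07, adjusted p = 0.00811). Every Opa1-/- library is the higher, and without both libraries numbered 3 the adjusted p was 0.0562. Among kinases, STAT and IRF factors and their regulators, 7 of 15 tested were higher and 4 lower (73.3%, against 33.0% of all genes). Socs3, an inhibitor of JAK kinases, had 25.9, 24.6, 26.9 and 23.8 TPM in Opa1-/- libraries, against 18.2, 16.9, 17.4 and 14.3 TPM in Opa1-/- + OPA1 libraries (0.58, SE 0.07, adjusted p = 0.000321). The groups do not overlap. Ptpn6, a phosphatase that restrains cytokine signalling, differed by 0.61 (SE 0.10, adjusted p = 0.00229), Nmi, a binding partner of STAT proteins, by 0.38 (SE 0.07, adjusted p = 0.00369), and Irf5, a factor of inflammatory signalling, by -0.51 (SE 0.11, adjusted p = 0.00641).

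Of the genes that relay nucleic acid sensing, 2 of 29 tested were higher and 3 lower (17.2%, against 33.0% of all genes). Zcchc3, a co-sensor of nucleic acid for cGAS and RIG-I-like receptors, had 19.7, 16.3, 19.4 and 16.6 TPM in Opa1-/- libraries, against 12.4, 12.3, 14.9 and 12.3 TPM in Opa1-/- + OPA1 libraries (0.45, SE 0.06, adjusted p = 0.000590). Samhd1, which degrades nucleotides and limits reverse transcription, had 34.8, 33.6, 42.3 and 32.0 TPM in Opa1-/- libraries, against 43.6, 42.2, 51.0 and 44.4 TPM in Opa1-/- + OPA1 libraries (-0.33, SE 0.06, adjusted p = 0.00212). Traf3, a ubiquitin ligase between MAVS and the kinase TBK1, had 25.9, 25.5, 27.6 and 19.5 TPM in Opa1-/- libraries, against 31.4, 31.7, 36.6 and 31.6 TPM in Opa1-/- + OPA1 libraries (-0.40, SE 0.08, adjusted p = 0.00426). The groups of Zcchc3 and Traf3 do not overlap, and Samhd1 overlaps only through Opa1-/- library 3 as deposited. Tbkbp1, an adaptor of TBK1, differed by 0.35 (SE 0.10, adjusted p = 0.0231), and this did not pass in 6 alternatives (adjusted p 0.0510 to 0.0661), those without Opa1-/- + OPA1 library 1 or 2 among them (0.0588 and 0.0661).

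Of the other interferon-stimulated genes, 11 of 35 tested were higher and 5 lower (45.7%, against 33.0% of all genes, 16.3% higher and 16.7% lower). Igtp, an immunity-related GTPase, had 1.84, 1.66, 2.03 and 2.04 TPM in Opa1-/- libraries, against 0.535, 0.566, 0.681 and 0.598 TPM in Opa1-/- + OPA1 libraries (0.86, SE 0.09, adjusted p = 0.000240). It passed the filter only through its Opa1-/- libraries, and so did Trim21, a cytosolic antibody receptor (0.74, SE 0.11, adjusted p = 0.00114). Parp10, an ADP-ribosyltransferase, had 4.34, 3.92, 4.47 and 4.15 TPM in Opa1-/- libraries, against 2.167, 1.97, 2.52 and 2.48 TPM in Opa1-/- + OPA1 libraries (0.67, SE 0.07, adjusted p = 0.000244). Mndal, of the interferon-inducible p200 family, had 2.89, 3.63, 3.34 and 2.89 TPM in Opa1-/- libraries, against 5.82, 5.89, 6.60 and 6.21 TPM in Opa1-/- + OPA1 libraries (-0.77, SE 0.08, adjusted p = 0.000153). Neither overlaps between the groups.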

How the data were processed

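Per the labels' protocols, the RNeasy Plus Kit and NEBNext Ultra II RNA reagents were used for the 8 MEF libraries. The submitters' processing notes name bcl2fastq 2.17, STAR 2.5.2b, featureCounts and Subread 1.5.2, and the builds mm10 and GRCh38 with no role; strand setting and annotation are not given in the sources used here. The authors deposited TPM per gene, per the file headers. The members, lists and tests were chosen with earlier results of these data known. Lists were written by function.

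Scaling factors were trimmed means of each library's log ratios, with a fraction of 0.3 of the ratios and 0.05 of the mean levels dropped at either extreme. The model was limma-trend (limma 3.58.1, R 4.3.3), two-sided, without covariates, on log2(scaled TPM + 1), with Benjamini-Hochberg adjustment over 14272 genes. TPM per sample and the means ± SD of markers are as deposited. Ratios of means are of scaled TPM. Values of TPM times exon length (GENCODE M21, GRCm38, 48970 of 49315 identifiers) step by what 1 read is worth, and this gave recovered reads. Between 95.4% and 96.0% of low values were whole within 0.05 of a read. Of 71 member values above 0 and under 8.5 reads, 66 were whole within that tolerance. The reads are an estimate that depends on that annotation, were used in limma-voom only, and counting limits cover counting error only. The voom minimum of 10 reads in at least 4 libraries was chosen after seeing the data. Shared sequence was counted as 50-base words of the exons. The fits were tested on simulated data in which only more abundant genes were given a difference and libraries were independent. That simulation does not check the calls of members near 1 TPM. Python 3.11.15 with pandas 2.3.3, numpy 2.4.6 and matplotlib 3.10.9 did the rest.

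All 36 members are named, with up to 4 passing genes of largest absolute difference per list, the most abundant gene of each marker list and Opa1; others are said to be chosen after their values were seen. Deviations from group means of same-numbered libraries correlated at 0.246, 0.225, 0.317 and 0.119 over 9416 genes. Libraries with different numbers correlated at -0.32 to 0.114, so the pair numbered 4 is hardly told apart. The labels state no pairing. The main fit used none, and the replicate block was run as an alternative. Libraries of a group differed by more than sampling noise (lowest chi-square per degree of freedom 4.71, Opa1-/- + OPA1 libraries 1 and 2), and all 8 were kept. Alternatives were other scalings, filters, a pseudocount of 0.1, a replicate block, chromosome medians or length and GC trends removed, limma-voom, libraries left out, and 1 mismatch in the motif. Where libraries were left out, the genes tested were those of the fit on all 8. Protein sequences were not analysed here.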

Additional observations from a re-analysis of the deposited data

Results flagged for a closer look

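In TPM as deposited, before rescaling, 4 values stood apart from the other 3 of their group of 4 libraries by Dixon's ratio. At most 72 groups were examined, and chance gives about 1 in 20. The flags thus include differences of scale between libraries. Dividing by the scaling factors brings each of the 4 values nearer to its group, and whether any would still be flagged was not tested. Ifit2 was at 22.4 TPM in Opa1-/- library 4, against 27.9 to 28.6 TPM in the other Opa1-/- libraries. Ddx58 was at 3.04 TPM in Opa1-/- library 3, against 2.27 to 2.36 TPM in the others. Irf1 was at 21.1 TPM in Opa1-/- + OPA1 library 3, against 19.7 to 19.9 TPM in the others. That library has a scaling factor of 1.0817, and after rescaling its Irf1 value is the lowest of its group, not the highest. Isg15 was at 0.482 TPM in Opa1-/- + OPA1 library 2, against 0.607 to 0.626 TPM in the others, and that value rests on 7 reads.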

How the results depend on the processing

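Mb21d1, Gbp2, Bst2, Ifitm1, Ifitm3 and Parp9 passed in every alternative that could be run for them. Tmem173 was selected for the TPM test by its Opa1-/- libraries, and its value without a filter had an adjusted p of 0.0101. Of the comparisons of a single member with an alternative, 353 kept direction and side of the threshold, 11 lost the call (10 of Stat2, 1 of Ifit2) and 3 gained it (Irf3 without Opa1-/- library 2, adjusted p = 0.0404; Ifit3 without Opa1-/- library 1, 0.0447; Rnf213 with length and GC trends removed, 0.0211). Sign changes were among members that had not passed: Ddx58 at 0.087 with chromosome medians removed and 0.0026 with length and GC trends removed, Mavs at 0.0056 without Opa1-/- library 4, and Ifitm2 at -0.057 with chromosome medians removed, -0.019 with length and GC trends removed and -0.0067 without Opa1-/- library 4; with 1 library left out Mavs ranged from -0.121 to 0.0056 and Ifitm2 from -0.0067 to 0.0975. Members called higher numbered 2 with a filter at 5 TPM, which leaves fewer members to test, and 8 with limma-voom, which tests more. Allowing 1 mismatch put the ISRE core in 22 members. Members called ranged from 6 to 12 over all alternatives and from 8 to 10 with 1 library left out, and genes called from 3281 to 5587 and from 3538 to 5421. With the replicate number as a block, 9 members and 4748 genes passed, and the block changed no member's call. Members under about 10 reads per library were limited by depth.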
